A study of Mus musculus with 10 samples.

Results

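The Kruppel-like factors are described here across mouse thyroid tumours of 2 types, anaplastic (ATC) and papillary (PTC). The 10 members (Klf2, Klf3, Klf4, Klf5, Klf6, Klf7, Klf9, Klf10, Klf13 and Klf15) were taken by gene symbol from 19938 named genes, and each was read by 1 probe set, a group of array probes for the same transcript. RNA of 5 ATC and 5 PTC tumours was measured on whole-transcript arrays, 1 array per tumour. The 5 ATC tumours came from mice labelled TPOCreER; BrafV600E; p53 -/-, and the 5 PTC tumours from mice labelled TPOCreER; BrafV600E, all on a mixed C57BL/6;129SvJae background. Both groups therefore carried a tamoxifen-activated Cre under the promoter of thyroid peroxidase, which is active in thyroid follicular cells, and the V600E mutation of the kinase gene Braf, and histology and p53 genotype changed together. The labels give no age or tamoxifen time and do not say that each tumour came from its own mouse, so p-values measure the spread between these tumours. Every level is a probe set intensity on the log2 scale. A difference is the ATC mean minus the PTC mean, errors of means are SDs over n = 5 tumours of a type, and precision is limited by having 5 arrays of each.

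Kruppel-like factors are transcription factors that bind GC-rich and CACCC sequences through zinc fingers at their C-terminus. They are related to SP1, and the parts outside the zinc fingers decide which cofactors they bring: Klf3 binds the co-repressor CtBP, Klf9, Klf10 and Klf13 bind SIN3, and Klf5, Klf6 and Klf7 are mostly known as activators. In epithelia, members of the family are known for balancing division against differentiation, with Klf5 in dividing cells and Klf4 in cells that leave the cycle. Several others are early response genes to serum, hormones or growth factors.

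The family changed little between the tumour types. Klf5 and Klf3 fell in ATC and Klf10 rose, by 1.24-fold to 1.35-fold, and the other 7 members did not pass the test. The test was limma across all genes, with Benjamini-Hochberg adjustment and a threshold of 0.05. The 3 calls were 30.0% of the members, beside 21.2% of all genes called in either direction, 11.5% higher and 9.72% lower in ATC, so the share says nothing particular about the family. For 0 of the 10 members did the ATC tumours all lie on one side of the PTC tumours, which was so for 16.9% of all genes. Differences had a median of 0.13 over the members and −0.02 over all genes, and absolute differences a median of 0.18 and 0.14. None of the members changed by 1 log2 unit, and the largest absolute difference was 0.44.

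**Figure D1:**
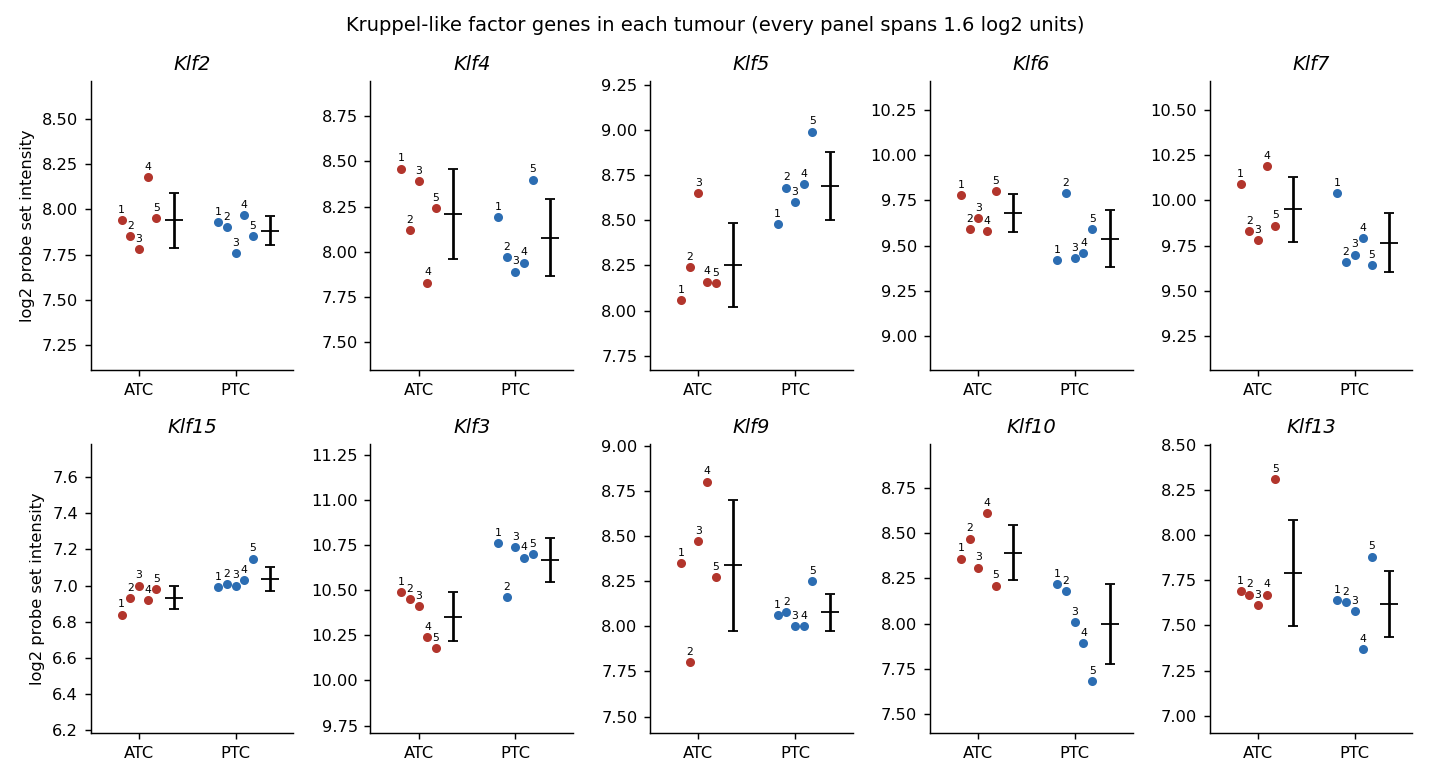
Log2 probe set intensity (vertical axis) of each member in the ATC and PTC tumours, with replicate numbers beside the points and the mean ± SD (n = 5) as a bar to the right of each group. Every panel spans the same height, and the groups overlap in all 10 panels, by little in those of Klf3, Klf10 and Klf15.

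**Figure D2:**
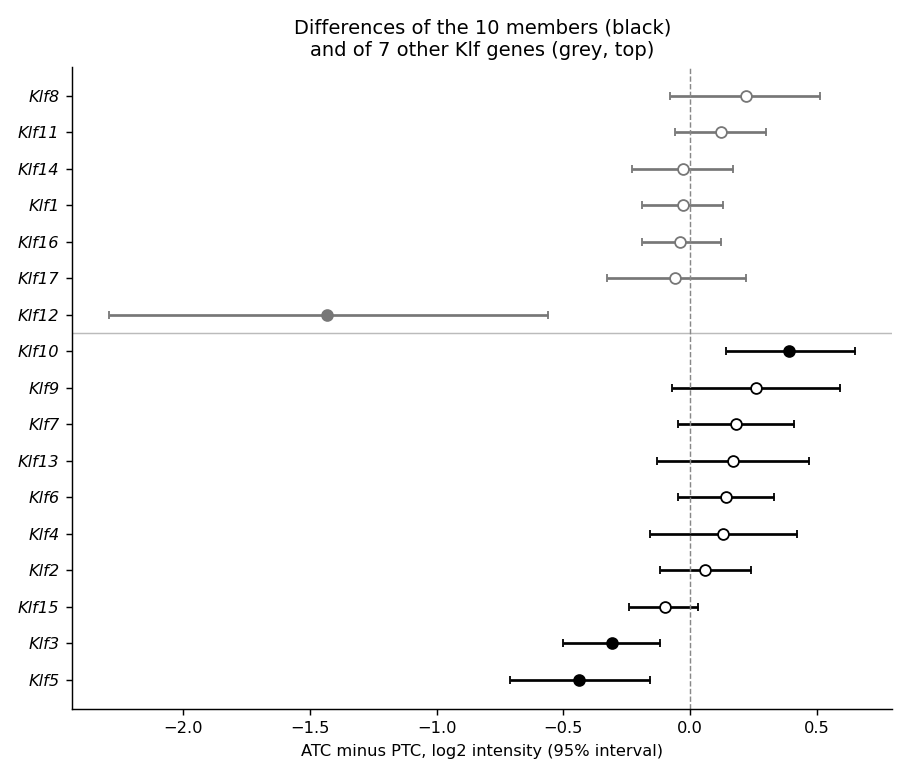
ATC minus PTC difference in log2 intensity (horizontal axis) with its 95% interval for the 10 members in black and 7 further Klf genes in grey, filled where the adjusted p was under 0.05. The members lie between −0.44 for Klf5 and 0.39 for Klf10, and Klf12 lies outside that range at −1.43.

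Klf5, an activator known from dividing epithelial cells such as those of intestinal crypts, was lower in ATC. Its values were 8.06, 8.24, 8.65, 8.16 and 8.15 in ATC replicates 1 to 5, against 8.48, 8.68, 8.60, 8.70 and 8.99 in PTC replicates 1 to 5. ATC replicate 3 lay within the PTC range, and the other 4 ATC tumours lay below every PTC tumour. The means were 8.25 ± 0.23 in ATC and 8.69 ± 0.19 in PTC, so that Klf5 fell by 0.44 (SE 0.12, 95% interval −0.71 to −0.16, adjusted p = 0.0276), or 1.35-fold. The adjusted p was 0.00437 without ATC replicate 3 (difference −0.54). The call ended without ATC replicate 1, 4 or 5 or PTC replicate 2, 4 or 5, with differences of −0.44 to −0.36 and adjusted p-values of 0.0517 to 0.0664. Leaving out a tumour also lowered the number of calls over all genes, from 4234 to between 3253 and 4128.

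Markers of epithelial cells moved in the same direction as Klf5. Of 10 markers 8 fell and 0 rose, with a median of −1.84, beside 9.72% of all genes that fell. The mean of the list ran from 7.72 to 9.30 in ATC tumours and from 10.10 to 10.25 in PTC tumours. The keratin genes Krt8 and Krt18 did not pass, with differences of −0.3 and −0.21 (adjusted p = 0.19 and 0.583). ATC replicate 3, with the highest Klf5 of the ATC tumours, had the second lowest epithelial mean of them, 7.89, and ATC replicate 2 the highest, 9.30. Of 6 measured thyroid follicular markers 1 fell, the thyrotropin receptor gene Tshr (−1.67), with a list median of −0.74. Tg and Pax8 differed by −2.76 and −1.01 and did not pass (adjusted p = 0.0583 and 0.0564). The mean of this list ran from 7.05 to 8.76 in ATC and from 8.45 to 9.59 in PTC. In such bulk samples, fewer cells of a type and less RNA per cell cannot be told apart, and the part of cell composition in the Klf5 difference was not tested.

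Klf4, a factor of differentiating epithelia and one of the reprogramming factors, showed no difference that passed. Its values were 8.46, 8.12, 8.39, 7.83 and 8.24 in ATC replicates 1 to 5, against 8.19, 7.97, 7.89, 7.94 and 8.40 in PTC replicates 1 to 5. The lowest and the highest of the 10 values were both in ATC tumours. The difference was 0.13 (95% interval −0.16 to 0.42, adjusted p = 0.556), and leaving out ATC replicate 1 gave 0.07, while leaving out ATC replicate 4 gave 0.22.

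Klf2, the closest relative of Klf4, is known from endothelial cells under flow and from resting lymphocytes. It was at 7.94, 7.85, 7.78, 8.18 and 7.95 in ATC replicates 1 to 5, and at 7.93, 7.90, 7.76, 7.97 and 7.85 in PTC replicates 1 to 5. The groups lay almost on top of each other apart from ATC replicate 4. The difference was 0.06 with the narrow interval of −0.12 to 0.24 (adjusted p = 0.669), and it was 0.00 without ATC replicate 4. Some markers of cell types that are rich in Klf2 fell in ATC. Of 10 endothelial markers 2 fell and 0 rose (median −0.20, list mean 7.95 to 8.31 in ATC and 8.17 to 8.56 in PTC), namely Tek (−0.67, adjusted p = 0.0160) and Pecam1 (−0.40), whose adjusted p lay just under the threshold. Over all genes, 21.2% were called in either direction and 9.72% were lower in ATC. The endothelial genes Cdh5 and Cldn5 differed by 0.02 and 0.08 (adjusted p = 0.907 and 0.602). Of 4 measured T cell markers 3 fell (median −0.88, list mean 6.53 to 7.40 in ATC and 7.32 to 7.93 in PTC). Of 4 measured B cell markers only Cd79b fell (−0.78, list mean 6.27 to 6.70 in ATC and 6.63 to 7.80 in PTC). The B cell mean of 7.80 was that of PTC replicate 2, and the other PTC tumours were at 6.63 to 6.78. The part of these cell types in the Klf2 level was not tested.

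Klf6, which is induced by injury and growth factors, ran from 9.58 to 9.80 in ATC with a median of 9.65, and from 9.42 to 9.79 in PTC with a median of 9.46. PTC replicate 2 lay near the top of the ATC range, and PTC replicates 1, 3 and 4 lay below every ATC tumour. The difference of 0.14 had an interval of −0.05 to 0.33 (adjusted p = 0.308). Klf7, best known for its role in axon growth, ran from 9.78 to 10.19 in ATC with a median of 9.86, and from 9.64 to 10.04 in PTC with a median of 9.70. ATC replicates 1 and 4 lay above every PTC tumour, and PTC replicate 1 stood above the other PTC tumours. The Klf7 difference was 0.18 (95% interval −0.05 to 0.41, adjusted p = 0.258).

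Klf15, a glucocorticoid-induced regulator of amino acid and glucose metabolism in muscle and liver, had the least spread of the members. Its values were 6.84, 6.93, 6.995, 6.92 and 6.98 in ATC replicates 1 to 5, against 6.99, 7.01, 6.998, 7.03 and 7.15 in PTC replicates 1 to 5. The difference was −0.10 (95% interval −0.24 to 0.03, adjusted p = 0.290), and 4 ATC tumours lay below every PTC tumour. The probe set had a mean below the median of all genes, so a difference may be compressed near the background, for which no detection call is given. Neither skeletal muscle markers (0 of 6 passed in limma, and 0 at an unadjusted p under 0.05, median −0.15, list mean 6.996 to 8.35 in ATC and 6.73 to 8.83 in PTC) nor adipocyte markers (0 of 5 by either measure, median −0.13, list mean 6.81 to 7.10 in ATC and 6.89 to 7.34 in PTC) changed past the threshold, although the muscle mean differed widely among tumours of each type.

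Klf3, the repressor of the family that acts through CtBP and is known from red cell precursors, fat and B cells, was lower in ATC. Its values were 10.49, 10.45, 10.41, 10.24 and 10.18 in ATC replicates 1 to 5, against 10.76, 10.46, 10.74, 10.68 and 10.70 in PTC replicates 1 to 5. PTC replicate 2 lay among the ATC tumours, and the other 4 PTC tumours lay above every ATC tumour. The means were 10.35 ± 0.14 in ATC and 10.67 ± 0.12 in PTC, so that Klf3 fell by 0.31 (SE 0.09, 95% interval −0.50 to −0.12, adjusted p = 0.0240), or 1.24-fold. Without PTC replicate 2 the difference was −0.36 (adjusted p = 0.0133). With a tumour left out, the call ended without ATC replicate 4 or PTC replicate 1, 3 or 4, with differences of −0.31 to −0.28 and adjusted p-values of 0.0503 to 0.0609.

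CACCC and GC boxes, the kinds of sequence that Kruppel-like factors are known to bind, both occur in 5 of the 8 promoter windows at hand. The windows of 3 members are shown because they differ in these boxes: Klf3, which changed, has both, Klf4 only GC boxes, and Klf9 only a CACCC box. The windows cover 250 bases before to 50 after the gene's start, are from RefSeq on GRCm38.p6, and are written 5′ to 3′ on the gene's strand. They lie at chr5:64803271-64803570 (+) for Klf3, chr4:55532426-55532725 (−) for Klf4 and chr19:23140976-23141275 (+) for Klf9. Capitals mark CACCC and GGGCGG on either strand.
Klf3: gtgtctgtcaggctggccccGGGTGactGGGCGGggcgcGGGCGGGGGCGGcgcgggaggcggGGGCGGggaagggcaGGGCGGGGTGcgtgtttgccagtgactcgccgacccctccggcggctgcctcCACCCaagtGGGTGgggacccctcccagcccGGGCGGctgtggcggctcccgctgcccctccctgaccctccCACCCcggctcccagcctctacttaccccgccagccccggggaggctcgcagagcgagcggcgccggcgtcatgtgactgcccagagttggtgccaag
Klf4: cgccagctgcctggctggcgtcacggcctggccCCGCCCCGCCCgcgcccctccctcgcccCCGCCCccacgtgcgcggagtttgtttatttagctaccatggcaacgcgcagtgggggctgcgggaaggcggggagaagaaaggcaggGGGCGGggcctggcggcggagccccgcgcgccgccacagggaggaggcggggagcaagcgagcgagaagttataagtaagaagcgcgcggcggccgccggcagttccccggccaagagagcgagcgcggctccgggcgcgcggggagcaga
Klf9: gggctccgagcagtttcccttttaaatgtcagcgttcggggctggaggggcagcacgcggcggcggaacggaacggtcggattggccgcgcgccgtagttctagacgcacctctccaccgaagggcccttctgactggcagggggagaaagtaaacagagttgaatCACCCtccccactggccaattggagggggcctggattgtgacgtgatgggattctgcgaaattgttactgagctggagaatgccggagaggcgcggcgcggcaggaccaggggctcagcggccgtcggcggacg
The Klf3 window has 5 matches to CACCC and 6 to GGGCGG, of which 1 pair shares 1 base. The Klf4 window has 0 and 4 matches, and the Klf9 window 1 and 0. Windows were at hand for 8 members, and Klf5 and Klf10 are not shown. Of the 8, 6 had CACCC and 7 had GGGCGG, beside 57.5% and 35.7% of 32851 promoter windows of mouse genes. Such matches describe letters, not bound sites.

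Klf10, the SIN3-binding repressor also called TGF-beta inducible early gene, was the member that rose. Its values were 8.36, 8.47, 8.31, 8.61 and 8.21 in ATC replicates 1 to 5, against 8.22, 8.18, 8.01, 7.89 and 7.68 in PTC replicates 1 to 5. The groups touched at ATC replicate 5 and PTC replicate 1, and otherwise every ATC tumour lay above every PTC tumour. The means were 8.39 ± 0.15 in ATC and 7.996 ± 0.22 in PTC, a difference of 0.39 (SE 0.11, 95% interval 0.14 to 0.65, adjusted p = 0.0298), or 1.31-fold. The call ended without ATC replicate 1, 2 or 4 or PTC replicate 3, 4 or 5, with differences of 0.31 to 0.40 and adjusted p-values of 0.0530 to 0.0721. It also ended when the deposited values were quantile normalized here (0.38, adjusted p = 0.0691).

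Among other genes known to be induced by TGF-beta, 0 of 6 measured rose and 1 fell (median −0.03, beside −0.02 over all genes), the latent TGF-beta binding protein gene Ltbp2 (−0.64, adjusted p = 0.00368). Shares over all genes were 11.5% up and 9.72% down. The feedback inhibitor gene Smad7 differed by 0.14 (adjusted p = 0.404) and the matricellular gene Ccn2 by −0.90 (adjusted p = 0.0687). The mean of the list ran from 9.22 to 9.82 in ATC and from 9.51 to 9.85 in PTC. Macrophage markers moved in the direction of Klf10, and 7 of the 10 members, Klf10 among them, had positive differences. All 8 markers rose (median 1.34), with a list mean of 10.66 to 11.37 in ATC and 9.47 to 9.93 in PTC. Of the ATC tumours, replicate 5 had the highest macrophage mean (11.37) and the lowest Klf10 (8.21). Of the PTC tumours, replicate 5 had the lowest of both (9.47 and 7.68). The part of macrophages in the Klf10 difference was not tested.

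Klf9, a target of thyroid hormone and of glucocorticoids, varied more than any other member in ATC. Its values were 8.35, 7.80, 8.47, 8.80 and 8.27 in ATC replicates 1 to 5, against 8.06, 8.08, 8.004, 8.004 and 8.25 in PTC replicates 1 to 5. ATC replicate 2 had the lowest of the 10 values, and the other 4 ATC tumours lay above every PTC tumour. The SD was 0.36 in ATC and 0.10 in PTC, and the difference of 0.26 did not pass (95% interval −0.07 to 0.59, adjusted p = 0.272). Without ATC replicate 2 the difference was 0.39 and passed (adjusted p = 0.0309).

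Glucocorticoid-induced genes were the related list with the highest median. Of the 11 genes, 9 did not pass, 2 rose and 0 fell, with a median of 0.32 beside −0.02 over all genes. The shares of all genes that rose and fell were 11.5% and 9.72%. Pdk4, a kinase that inhibits pyruvate oxidation, rose by 2.18 (SE 0.42, adjusted p = 0.00393). Fkbp5, a co-chaperone of the glucocorticoid receptor, was at 9.32, 8.63, 9.05, 10.17 and 9.75 in ATC replicates 1 to 5, against 7.90, 8.08, 8.01, 8.07 and 8.05 in PTC replicates 1 to 5. Its groups were separate, and it rose by 1.37 (SE 0.23, adjusted p = 0.00205). As for Klf9, the lowest ATC value of Fkbp5 was in replicate 2 and the highest in replicate 4, and the mean of the list was likewise lowest in ATC replicate 2 (8.87) and highest in ATC replicate 4 (9.83). In PTC the mean ran from 8.71 to 9.30 and was highest in replicate 2, while Klf9 was highest in PTC replicate 5 (8.25). Any shared cause of these patterns was not tested. Tsc22d3, the glucocorticoid-induced leucine zipper gene, differed by 0.70 (adjusted p = 0.0867) and Per1 by 0.43 (adjusted p = 0.220). Differences of Mt2, Mt1 and Cebpd were negative, at −0.51, −0.38 and −0.26 (adjusted p = 0.322, 0.205 and 0.535).

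Klf13, a SIN3-binding factor known to bind the CCL5 promoter in human T cells, rested on 1 tumour. Its values were 7.69, 7.67, 7.61, 7.67 and 8.31 in ATC replicates 1 to 5, against 7.64, 7.63, 7.58, 7.37 and 7.88 in PTC replicates 1 to 5. ATC replicate 5 stood far above the other 4 ATC tumours, which lay within the PTC range. The difference was 0.17 (95% interval −0.13 to 0.47, adjusted p = 0.445), and it was 0.04 without ATC replicate 5 (adjusted p = 0.822). That array had a wider distribution than the others and the lowest weight, 0.38, when arrays were weighted by their fit. Ccl5 itself differed by 0.18 (adjusted p = 0.669).

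**Figure D3:**
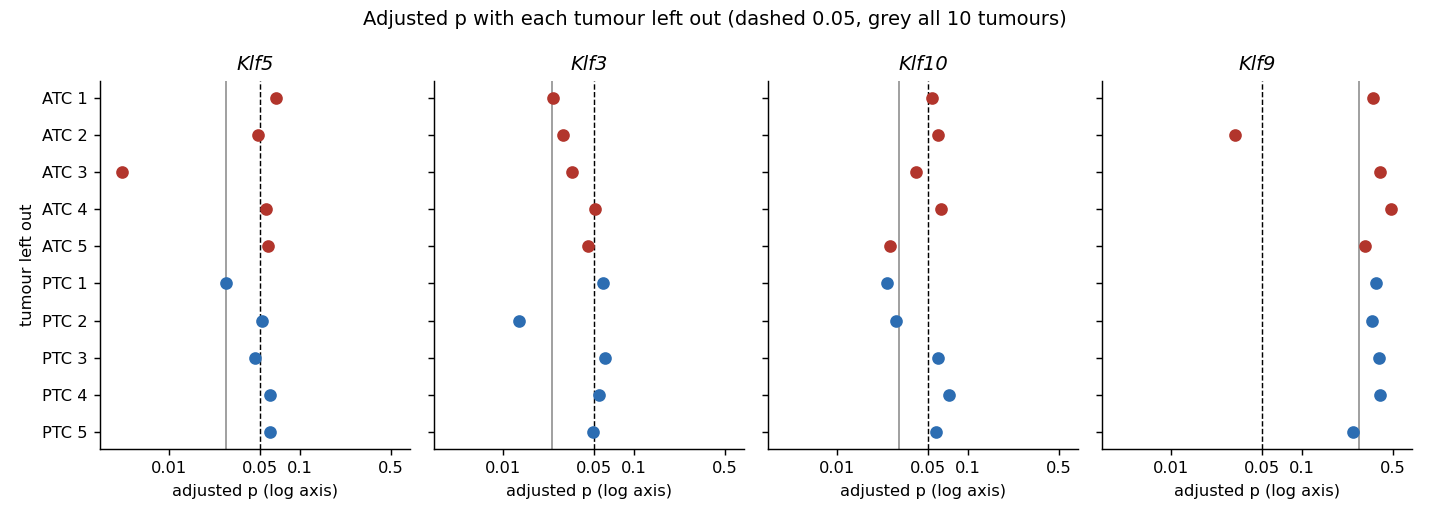
Adjusted p (horizontal axis, log scale) of Klf5, Klf3, Klf10 and Klf9 after leaving out 1 tumour, named on the vertical axis with ATC in red above PTC in blue; the dashed line is 0.05 and the grey line the value with all tumours. Klf5 and Klf10 each stay under 0.05 in 4 of the 10 fits, Klf3 in 6, and Klf9 in 1.

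The members did not vary as a block among tumours of the same type. ATC replicate 4 had the highest value of its type for 4 members (Klf2, Klf7, Klf9 and Klf10) and the lowest for 2 (Klf4 and Klf6). PTC replicate 5 had the highest value of its type for 5 members (Klf4, Klf5, Klf9, Klf13 and Klf15) and the lowest for 2 (Klf7 and Klf10). The SD was larger in ATC for 7 of the 10 members, beside 68.6% of all genes.

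**Figure D4:**
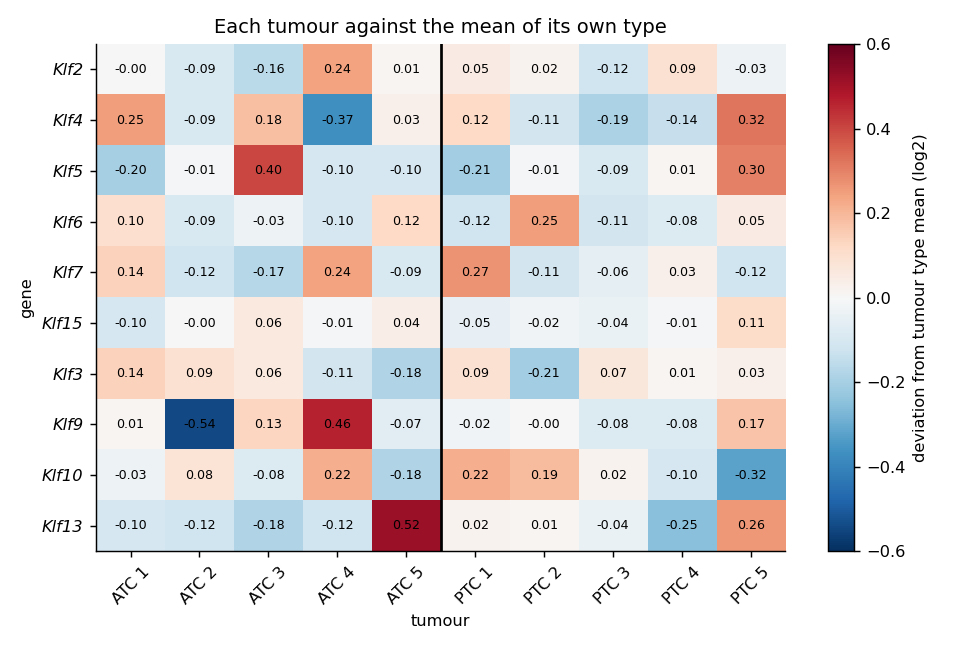
Deviation of each tumour from the mean of its own type, in log2 units, for the 10 members (rows) in ATC and then PTC tumours (columns), red above and blue below the mean. The largest deviations are those of Klf9 in ATC replicates 2 and 4 (−0.54 and 0.46) and of Klf13 in ATC replicate 5 (0.52).

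For each called member, the genes with the most similar patterns were listed. Few of the genes searched were members, so top places outside the family say nothing about it. Over the 10 arrays, as deviations from the mean of each type and among 9537 genes searched, the pattern of Klf5 was most like those of Nup160 (Pearson's r = 0.97) and Fancg (0.96). That of Klf3 was most like Gid4 (0.95) and Cep19 (0.92), and that of Klf10 most like Camta1 (0.94) and Plekho2 (0.90). These values describe 10 arrays and were the highest of a long search. Of these 6 genes, Nup160, a nuclear pore gene, differed between the types past the threshold (0.50, adjusted p = 0.00883), in the direction opposite to Klf5.

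Among the 7 further Klf genes, 1 fell, 0 rose and 6 did not pass, with a median of −0.03. In all, 9.72% of genes fell and 11.5% rose. Klf12, a CtBP-binding repressor like Klf3, was at 5.60, 7.61, 6.78, 7.80 and 6.10 in ATC replicates 1 to 5, against 8.96, 7.89, 8.10, 8.01 and 8.09 in PTC replicates 1 to 5. Every ATC tumour lay below every PTC tumour, and Klf12 fell by 1.43 (SE 0.39, adjusted p = 0.0242), more than any of the 10 members. As for Klf15, the mean of its probe set lay below the median of all genes, so its lowest values may lie near the background. With a tumour left out, its call ended without ATC replicate 5 or PTC replicate 1 (differences −1.26 and −1.24, adjusted p = 0.0575 and 0.0613). Klf8, another CtBP-binding member, differed by 0.22 (adjusted p = 0.307), and the differences of Klf1, Klf11, Klf14, Klf16 and Klf17 lay between −0.06 and 0.12. The mean over these genes ran from 6.61 to 6.95 in ATC and from 6.87 to 7.12 in PTC.

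SP genes, the closest relatives of the family, gave 0 calls among 8 measured members in limma, with a median of −0.03 and list means of 7.44 to 7.56 in ATC and 7.49 to 7.61 in PTC. Only Sp3 was under an unadjusted p of 0.05 (difference 0.19, adjusted p = 0.0887 in limma). Cofactors of the family went both ways, with 2 of 10 up, 1 down and a median of 0.15 (list mean 9.66 to 9.83 in ATC and 9.55 to 9.75 in PTC). Beside these 2 lists, 21.2% of all genes were called, 11.5% up and 9.72% down. The histone deacetylase genes Hdac3 and Hdac2 rose by 0.41 (SE 0.08, adjusted p = 0.00408) and 0.36 (SE 0.10, adjusted p = 0.0278), and the acetyltransferase gene Kat2b fell by 0.67 (SE 0.17, adjusted p = 0.0152). The Hdac2 call held in 5 of the 10 fits without 1 tumour and ended without ATC replicate 1 or 3 or PTC replicate 1, 3 or 5 (0.29 to 0.37, adjusted p up to 0.0673). The SIN3 and CtBP genes had no call: Sin3a differed by 0.23 (adjusted p = 0.115), Sin3b by 0.22 (adjusted p = 0.185), Ctbp1 by 0.13 (adjusted p = 0.519) and Ctbp2 by 0.17 (adjusted p = 0.188).

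Upstream regulators of the family had a median of 0.20. Of the 11, 2 rose and 0 fell, beside 11.5% and 9.72% of all genes. The largest was Mef2a, a MADS box factor of the pathway through which the kinase ERK5 induces Klf2 and Klf4 in endothelial cells. It was at 11.46, 11.18, 11.002, 11.61 and 11.32 in ATC replicates 1 to 5, against 10.37, 10.46, 10.38, 10.40 and 10.41 in PTC replicates 1 to 5. Its groups were separate, and it rose by 0.91 (SE 0.10, adjusted p = 0.000271). Klf2 and Klf4 had no call, and a link between them and Mef2a was not tested. Mapk7, which encodes ERK5, rose by 0.20 (SE 0.06, adjusted p = 0.0334), a call that held in 3 of the 10 fits without 1 tumour and ended without ATC replicate 1, 2 or 3 or PTC replicate 2, 3, 4 or 5 (0.18 to 0.21, adjusted p up to 0.0776). It also ended with quantile normalization (0.18, adjusted p = 0.0776) and with a variance trend (0.20, adjusted p = 0.0670). Mef2c differed by 0.61 (adjusted p = 0.0692) and Mef2d by 0.47 (adjusted p = 0.140). The receptors that act on Klf9 had no call, with Nr3c1, the glucocorticoid receptor gene, at −0.14 (adjusted p = 0.331) and the thyroid hormone receptor genes Thra and Thrb at 0.17 and −0.16 (adjusted p = 0.355 and 0.605). The list mean ran from 8.999 to 9.25 in ATC and from 8.82 to 8.86 in PTC.

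Immediate early genes, with which Klf2, Klf4, Klf6 and Klf10 are often induced, gave 1 rise, 2 falls and 10 genes that did not pass, with a median of −0.10. Of all genes, 11.5% rose and 9.72% fell. Jun rose by 0.70 (SE 0.16, adjusted p = 0.0101), with ATC replicate 4 at 8.48 and the other ATC tumours at 9.29 to 9.47, against 8.44 to 8.59 in PTC. Fos fell by 0.54 (SE 0.11, adjusted p = 0.00589) and Egr2 fell by 1.00 (SE 0.23, adjusted p = 0.00912), both with separate groups. Egr1 differed by −0.77 (adjusted p = 0.206). The list mean ran from 8.07 to 8.53 in ATC and from 8.16 to 8.61 in PTC.

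Genes known as targets of one or another member spanned a wider range of differences than the members. The target list is longer and, like the members, was chosen with earlier results of these data known. Of 20 measured targets 4 rose, 4 fell and 12 did not pass, with a median of −0.04 and list means of 8.26 to 8.72 in ATC and 8.61 to 8.74 in PTC. Among all genes, 11.5% rose and 9.72% fell. Krt19, an epithelial keratin gene, fell by 2.92 (SE 0.42, adjusted p = 0.00085). Cdh1, which encodes E-cadherin and is known to be activated by Klf4, fell by 2.43 (SE 0.39, adjusted p = 0.00136). Both are also in the epithelial marker list. Plau, the urokinase gene and a target of human KLF6, rose by 1.38 (SE 0.21, adjusted p = 0.00109), and the junction gene Jup fell by 1.29 (SE 0.27, adjusted p = 0.00584). The survivin gene Birc5, a target of human KLF5, rose by 1.00 (adjusted p = 0.00842). Klf5 fell, and its part in the Birc5 level was not tested. The lymphocyte trafficking genes S1pr1 and Itgb7, targets of Klf2 in mouse T cells, rose by 0.34 (adjusted p = 0.0242) and 0.51 (adjusted p = 0.0377), and Tgfbr1 fell by 0.76 (adjusted p = 0.00300). The S1pr1 call ended without PTC replicate 1 or 5 (0.31, adjusted p up to 0.0602) and after quantile normalization (0.29, adjusted p = 0.0666). That of Itgb7 held in 3 of the 10 fits without 1 tumour. It ended without ATC replicate 1, 2 or 5 or PTC replicate 2, 3, 4 or 5 (0.42 to 0.52, adjusted p up to 0.0857). Targets of Klf15 had no call, with Prodh at −0.17 (adjusted p = 0.138), Gpt at −0.11 (adjusted p = 0.316) and Bcat2 at −0.06 (adjusted p = 0.788).

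**Figure D5:**
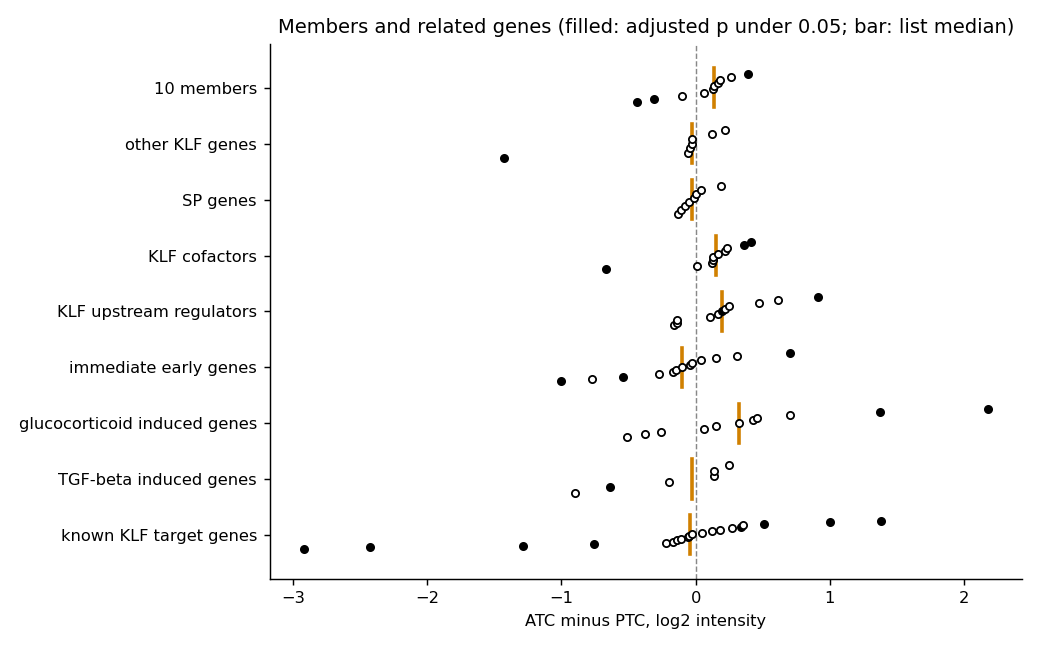
ATC minus PTC difference in log2 intensity (horizontal axis) of the 10 members and of the genes in 8 related lists (rows), filled where the adjusted p was under 0.05, with the median of each row as an orange bar. The members span −0.44 to 0.39, and the known targets span −2.92 to 1.38.

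Braf was at 9.92 ± 0.21 in ATC and 10.005 ± 0.08 in PTC (difference −0.08, adjusted p = 0.632). No probe set used here was named for the p53 gene, and the labelled p53 genotype was not tested against the arrays. Array medians ran from 7.25 to 7.31 in ATC and from 7.31 to 7.34 in PTC, and ATC replicate 5 had the widest quartiles (6.02 to 8.72).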

How the data were processed

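RNA of 10 mouse thyroid tumours was measured on Affymetrix arrays after biotin labelling, per the labels' protocols. The deposited table holds 35556 probe sets with 0 missing values. The authors' background correction, normalization and summarisation are not stated in the sources; Affymetrix Power Tools and limma are named per the submitters' processing notes, without version. The deposited values run from 2.79 to 14.15 and were read as normalized log2 intensities from that range, since the scale is not stated.

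The platform annotation given with the table named 21789 probe sets with 1 symbol, 1621 with several and 12146 with none here, and 21698 matched the gene table of GRCm38.p6. Each gene kept the probe set with the highest mean, which left 19938 genes. ATC was set against PTC with limma 3.58.1 in R 4.3.3, without covariates or filter, with Benjamini-Hochberg adjustment over all genes; the procedure was tested on simulated data. Tables and figures used Python 3.11.15, numpy 2.4.6, pandas 2.3.3 and matplotlib 3.10.9.

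The members and lists (8 of related genes, 9 of cell type markers) were chosen with earlier results of these data known. The members were named in any case, Braf as a check, and of each list up to 4 genes with the largest difference, or all called genes where 5 or fewer passed; the others named were chosen after their values were seen. List genes with no such probe set are not analysed here. Same-numbered tumours did not deviate together (correlations −0.09 to 0.12), so numbers were not taken as pairs. Alternatives were a replicate block, other probe set choices, 2 filters on dim genes, quantile normalization, centring, a variance trend, array weights, a skeletal muscle covariate and each array left out.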

Additional observations from a re-analysis of the deposited data

Results flagged for a closer look

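In 3 of the 20 groups of 5 tumours (10 members in each tumour type), 1 tumour lay further from the rest than Dixon's critical value of 0.71 for the gap over the range; chance gives about 1 in 20 groups. Klf13 was at 8.31 in ATC replicate 5, against 7.61 to 7.69 in the other ATC tumours. Klf3 was at 10.46 in PTC replicate 2, below the 10.68 to 10.76 of the other PTC tumours. Klf15 was at 7.15 in PTC replicate 5, above the 6.99 to 7.03 of the other PTC tumours.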

How the results depend on the processing

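No member reversed its direction in any alternative. The count of called members was 2 with the replicate block, 2 with quantile normalization and 3 in the other 8 alternatives that kept all tumours. With a tumour left out it was 0 to 3: 0 without ATC replicate 4 or PTC replicate 4, and 1 without ATC replicate 1 or PTC replicate 3 or 5. Without ATC replicate 5, the array with the lowest weight, it was 2. With the replicate block, Klf3 no longer passed (−0.31, adjusted p = 0.0534), and with quantile normalization Klf10 did not (0.38, adjusted p = 0.0691); the cause was not tested. With a tumour left out, the differences ran from −0.54 to −0.36 for Klf5, −0.36 to −0.27 for Klf3, 0.31 to 0.45 for Klf10 and 0.14 to 0.39 for Klf9, which passed in 1 fit. The other 6 members passed in 0 of the 10 such fits, with differences of 0.00 to 0.10 for Klf2, 0.07 to 0.22 for Klf4, 0.11 to 0.20 for Klf6, 0.12 to 0.25 for Klf7, 0.04 to 0.23 for Klf13 and −0.12 to −0.07 for Klf15. The groups did not overlap for 1 member (Klf3) after quantile normalization and for 0 to 2 members with a tumour left out, when fewer tumours have to separate. Among related genes, the replicate block ended the calls of Klf12 (−1.43, adjusted p = 0.0607), Mapk7 (0.20, adjusted p = 0.0971) and S1pr1 (0.34, adjusted p = 0.0654). Quantile normalization ended those of Mapk7 and S1pr1, and the variance trend that of Mapk7. Over all genes 3762 passed with the block, against 4234 without it, and 3253 to 4128 passed with a tumour left out. Klf15 was left out by the filter at the median, as were the called related genes Klf12, Fos and Itgb7, so these have no value there. Detection above background is not given, so small differences of dim genes may be compressed.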

Other observations

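Among the marker lists not yet described, fibroblast markers had 2 falls and 0 rises among 6 (median −0.25), with a list mean of 8.97 to 9.92 in ATC and 9.66 to 9.81 in PTC. Falls made up 9.72% of all genes and rises 11.5%. The small proteoglycan gene Lum fell by 2.07 (SE 0.35, adjusted p = 0.00177), and the related Dcn fell by 1.35 (SE 0.19, adjusted p = 0.000648). The platelet-derived growth factor receptor gene Pdgfra differed by 1.17 (adjusted p = 0.0848) with an SD of 1.16 in ATC and 0.06 in PTC. The fibroblast mean was highest in ATC replicate 5 (9.92), the tumour with the highest Klf13. The part of this in the Klf13 value was not tested.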
